A study of Mus musculus with 8 samples.

Results

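The BCL2 family decides whether the mitochondrial outer membrane stays closed or is opened to release the factors that start apoptosis, and 10 of its genes are described here: the anti-apoptotic Bcl2, Bcl2l1 and Mcl1, the effectors Bax and Bak1, and the BH3-only genes Bmf, Bcl2l11, Bid, Bad and Bbc3. The members were all non-control probes whose deposited gene name was one of these 10 symbols, of 27376 gene names on the array. All 10 were present, with 21 probes, and all 21 probes were bright enough to be tested. The probe with the highest mean signal stood for a gene in the counts, and every other probe is given beside it.

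The study used RAW264.7, a macrophage-like tumour line from the mouse, and 8 one-colour Agilent arrays. The 4 treatments were no added agent (control), all-trans retinoic acid (ATRA), which binds the retinoic acid receptors, interleukin-13 (IL-13), a cytokine known for alternative or M2 activation of macrophages, and both agents together. Each treatment had 1 array at 12 h and 1 array at 24 h. All groups grew in DMEM with fetal bovine serum, and the labels give no doses. They describe cells of the control and ATRA groups as unpolarized, those given IL-13 alone as M2, and those given both agents as suppressed in M2 polarization. As this was 1 cell line in bulk, fewer cells expressing a gene and less of its RNA per cell cannot be told apart.

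In this family, the anti-apoptotic proteins hold BAX and BAK in check, and BAX and BAK form the pores of the outer membrane once freed. BH3-only proteins carry a single short helix, the BH3 motif, with which they occupy the groove of the anti-apoptotic proteins or activate the effectors directly. In macrophages and other blood cells Bcl2l11, Bcl2l1 and Mcl1 are known as main determinants of lifespan, and Bmf is known as a BH3-only protein held on the cytoskeleton through dynein light chain.

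The probe sequences below, taken from the deposited array annotation, show coding probes of some genes named in the results. Only that of Bcl2 is the brightest probe of its gene. For Bmf, Bcl2l11 and Bak1 the printed sequences are therefore not those behind the counts. They lie in protein-coding sequence, run 5′ to 3′ in the sense of the gene, and are given with their positions on mouse build mm9. In Bcl2l11 the capitals mark the codons of the glycine and aspartate that BH3 motifs share, and in Bak1 those of a tryptophan, glycine and arginine run in its BH1 region.
Bmf, probe A_51_P482239, chr2:118358312-118358371, minus strand: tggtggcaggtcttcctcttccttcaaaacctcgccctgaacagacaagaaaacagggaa
Bcl2l11, probe A_51_P484880, chr2:127972893-127983988, plus strand: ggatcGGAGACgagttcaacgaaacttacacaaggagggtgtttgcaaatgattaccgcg
Bcl2, probe A_51_P380013, chr1:108608970-108609029, minus strand: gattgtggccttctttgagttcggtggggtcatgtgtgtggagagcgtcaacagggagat
Bak1, probe A_52_P225207, chr17:27158232-27158291, minus strand: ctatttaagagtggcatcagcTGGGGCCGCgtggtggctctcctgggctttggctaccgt
The 60 bases of the Bcl2l11 probe are spread over 11096 bases of the genome, so it reads across an exon junction and detects spliced RNA.

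Bmf fell with each agent alone and fell furthest with both, and it was the member with the largest difference in every comparison with control. Its brightest probe was 4.16-fold lower with IL-13, 5.06-fold lower with ATRA and 18.5-fold lower with both agents than in control. On its dimmer coding probe the fall with both agents was 2.53-fold. On their brightest probes Bcl2 and Bak1 rose with both agents together, by 2.22-fold and 1.59-fold. The other 2 Bcl2 probes were 2.04-fold and 1.20-fold higher, and the other Bak1 probe 1.05-fold higher. No change that passed the test was found for the other 7 members on their brightest probes. A change passed the test, or was called, where limma's Benjamini-Hochberg adjusted p over all 24043 probes tested was under 0.05. With no replicate at the same time, the test measures how well a difference repeats between 12 h and 24 h.

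In counts, IL-13 against control called 1 of 10 members, Bmf, which was lower, where 1.18% of all probes were called. ATRA against control again called 1 of 10, Bmf, with 1.58% of all probes called. Both agents against IL-13 alone called 1 of 10, Bmf, with 2.25% of all probes called. Both agents against ATRA alone called 0 of 10 by limma, although 3 members had an unadjusted p under 0.05, and 0.333% of all probes were called. Both agents against control called 3 of 10, namely Bmf lower and Bcl2 and Bak1 higher, where 8.67% of all probes were called. The interaction, which asks whether the effect of both agents departs from the sum of the single effects on the log2 scale, called 0 of 10 members by limma, with 0 at an unadjusted p under 0.05 and 0.0125% of all probes called. The median log2 difference of the 10 members was 0.08 with IL-13, 0.17 with ATRA and 0.12 with both agents against control, beside medians of -0.00, -0.02 and -0.02 over all probes.

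**Figure D1:**
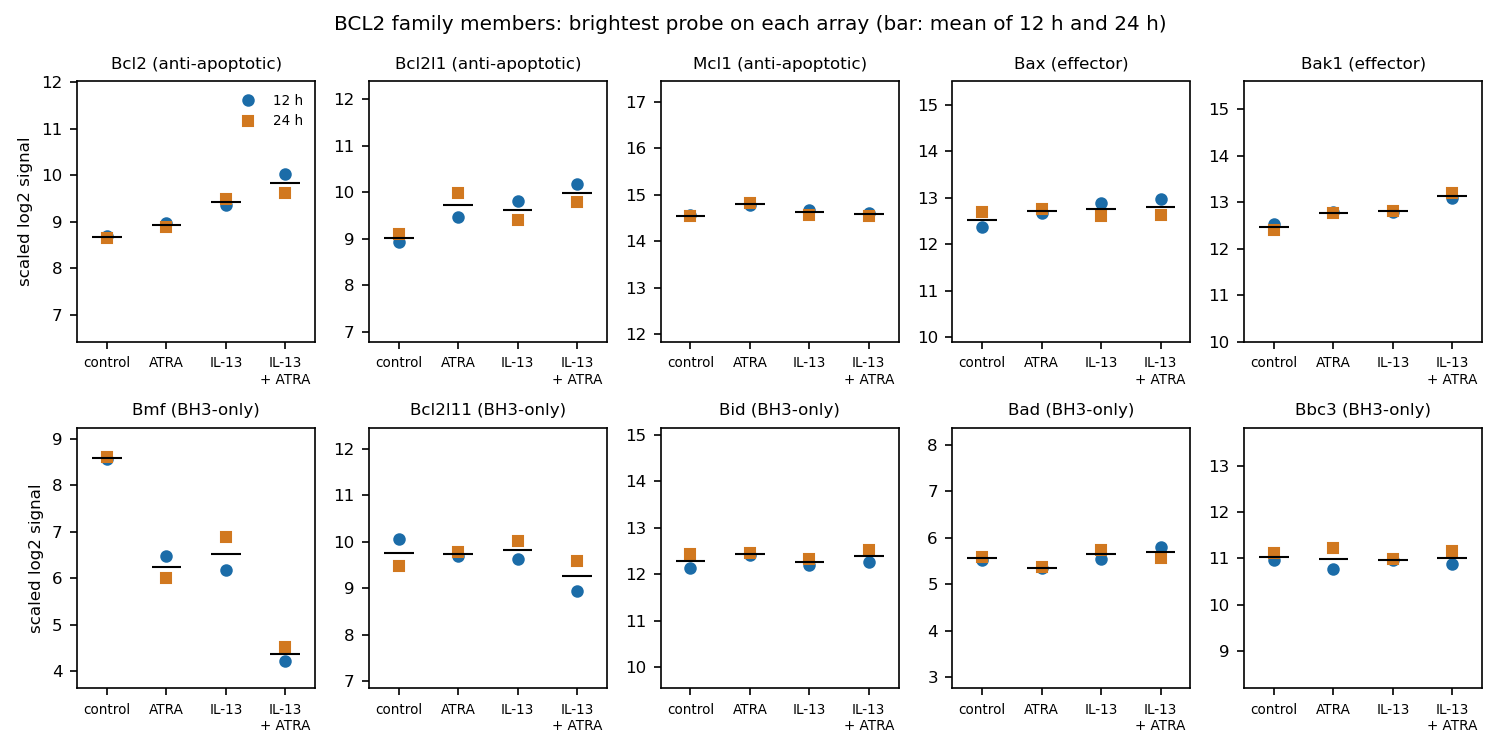
Scaled log2 signal (y axis, a span of equal height in each panel) of the brightest probe of each of the 10 genes on the 8 arrays, by treatment (x axis). Circles are 12 h arrays, squares are 24 h arrays and bars are the means of both. Bmf steps down from 8.56 and 8.60 in control to 4.23 and 4.52 with both agents, while Mcl1 stays between 14.53 and 14.82 on all arrays.

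The anti-apoptotic genes come first. Bcl2 encodes the founding member of the family, which guards the outer membrane. On its brightest probe the scaled log2 signal was 8.69 at 12 h and 8.66 at 24 h in control, 8.98 and 8.89 with ATRA, 9.36 and 9.49 with IL-13, and 10.03 and 9.62 with both agents. The order was control, ATRA, IL-13, both agents at each time, and none of the 4 treatments overlapped with another. Bcl2 rose by 1.15 ± 0.15 on the log2 scale with both agents against control (SE, adjusted p = 0.017), by 1.34 at 12 h and 0.96 at 24 h. With IL-13 alone the difference was 0.75 ± 0.15 (adjusted p = 0.094) and with ATRA alone 0.26 ± 0.15 (adjusted p = 0.53), and neither passed the test. Adding IL-13 to ATRA gave a difference of 0.89 (adjusted p = 0.12).

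The other Bcl2 probes read other stretches of its transcripts. Probe A_52_P534870, which lies 174.2 kb further along the gene, stood at 8.72 and 8.49 in control and at 9.63 and 9.63 with both agents. With ATRA it stood at 8.64 and 8.45, below control at each time, and with IL-13 at 9.13 and 9.67. At 24 h IL-13 alone was thus its highest array, so the order of the brightest probe was not repeated. The probe was called with both agents against control as well, at 1.03 ± 0.21 (adjusted p = 0.045). Probe A_52_P438280, 1.7 kb from the brightest one and designed on another transcript record, ranged from 5.48 to 6.47 over the 8 arrays and gave 0.27 ± 0.25 (adjusted p = 0.53). Over the 8 arrays the brightest probe correlated with A_52_P534870 at r = 0.91 and with A_52_P438280 at r = 0.58. The Bcl2 call of the brightest probe was lost without either control array or either array with both agents (adjusted p from 0.053 to 0.11), and without the filter on dim probes (adjusted p = 0.10). That of probe A_52_P534870 was lost without any 1 of those 4 arrays or of the ATRA arrays (adjusted p from 0.080 to 0.20), without the filter (adjusted p = 0.18), and with the percentile taken over the probes above background on all arrays (adjusted p = 0.051).

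**Figure D2:**
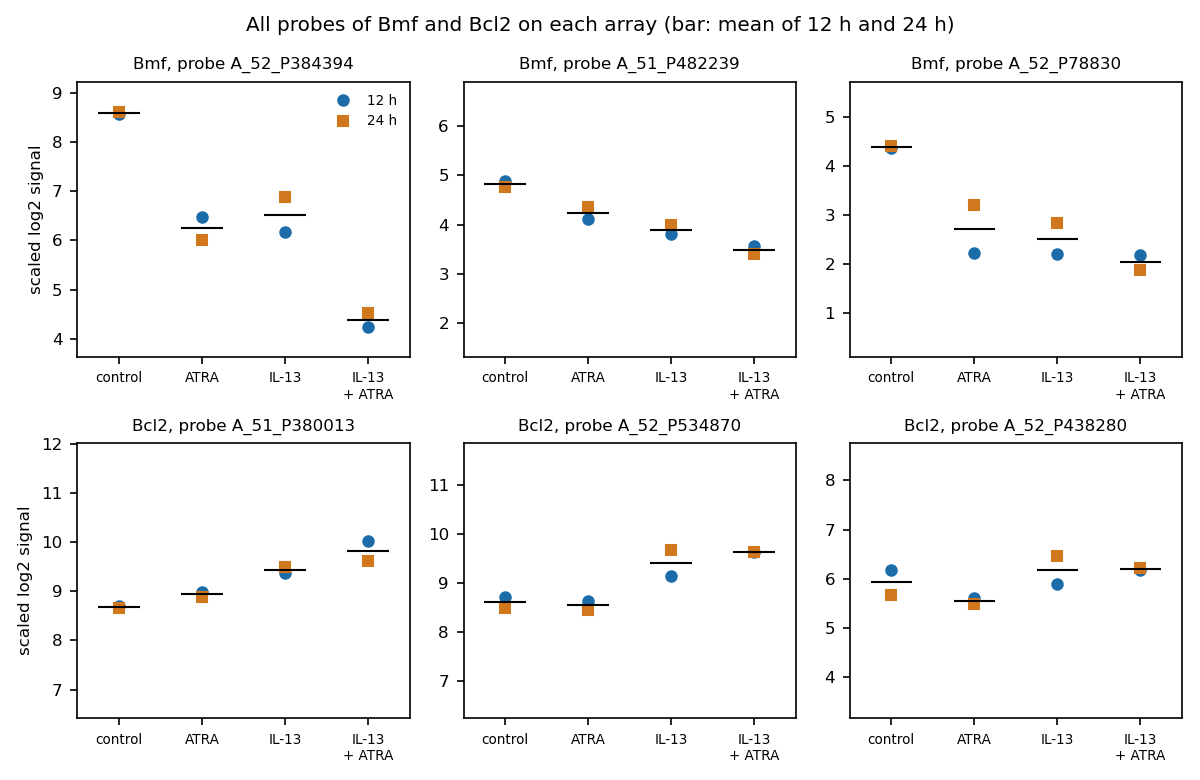
Scaled log2 signal (y axis, a span of equal height in each panel) of the 3 probes of Bmf (top) and the 3 probes of Bcl2 (bottom) on the 8 arrays, by treatment (x axis), with circles for 12 h, squares for 24 h and bars for their means. All 3 Bmf probes are highest in control, and 2 of the 3 Bcl2 probes are higher with both agents than in control at both times.

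Bcl2l1 encodes BCL-XL, a long-lived protector, and a shorter pro-apoptotic splice form. Its brightest probe stood at 8.94 and 9.10 in control, 9.47 and 9.98 with ATRA, 9.82 and 9.41 with IL-13, and 10.18 and 9.79 with both agents. All 6 treated arrays were above both control arrays, while the 3 treated groups overlapped with each other. No comparison passed the test: the differences from control were 0.60 ± 0.25 with IL-13 (adjusted p = 0.22), 0.71 ± 0.25 with ATRA (adjusted p = 0.29) and 0.96 ± 0.25 with both agents (adjusted p = 0.077). At 12 h the array with both agents was the highest and at 24 h the ATRA array was. The other 2 probes, which start at bases 129 and 674 of the transcript record, had the same highest array at each time, and correlated with the brightest probe at r = 0.82 and r = 0.96.

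Mcl1 encodes a short-lived protector that is turned over within hours of a stop in synthesis. Its brightest probe ranged from 14.53 to 14.82 over the 8 arrays, and the difference with both agents against control was 0.03 ± 0.11 (95% interval -0.24 to 0.30, adjusted p = 0.88). Probe A_52_P93933, which lies 1.3 kb upstream in the transcript, stood at 12.88 and 13.02 in control and at 13.45 and 13.45 with both agents. That difference was 0.50 ± 0.11 (adjusted p = 0.052) and did not pass the test. It was called in 4 of the alternative settings, namely normexp, the filter on all arrays, limma's trend and robust settings, and time as a random block. Both probes lie in the same deposited transcript record, yet they correlated at only r = 0.09 over the 8 arrays.

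Among the effectors, Bak1, which encodes the pore former resident on mitochondria, rose with both agents. Its brightest probe stood at 12.53 and 12.41 in control, 12.79 and 12.76 with ATRA, 12.80 and 12.82 with IL-13, and 13.09 and 13.19 with both agents. Both control arrays were the lowest and both arrays with the 2 agents the highest, and the single agents lay between them, from 12.76 to 12.82. The difference with both agents against control was 0.56 at 12 h and 0.78 at 24 h, a fitted 0.67 ± 0.11 (adjusted p = 0.028). The single agents gave 0.34 ± 0.11 with IL-13 (adjusted p = 0.17) and 0.31 ± 0.11 with ATRA (adjusted p = 0.30).

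The second Bak1 probe, the coding one whose sequence is printed above, ranged from 8.39 to 8.72 over the 8 arrays. It gave 0.07 ± 0.10 with both agents against control (95% interval -0.19 to 0.32, adjusted p = 0.72) and correlated with the brightest probe at r = 0.19. The rise of Bak1 was therefore seen on 1 of its 2 probes, which lie 1.3 kb apart on the genome. The call was also lost without either control array, either ATRA array or either array with both agents (adjusted p from 0.073 to 0.17), without the filter on dim probes, and in a fit of only the arrays compared (adjusted p from 0.099 to 0.16 in these 2 settings). Bax, the effector that moves from the cytosol to mitochondria, ranged from 12.38 to 12.98 on its single probe. Its difference with both agents against control was 0.27 ± 0.19 (adjusted p = 0.39), 0.61 at 12 h and -0.06 at 24 h.

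**Figure D3:**
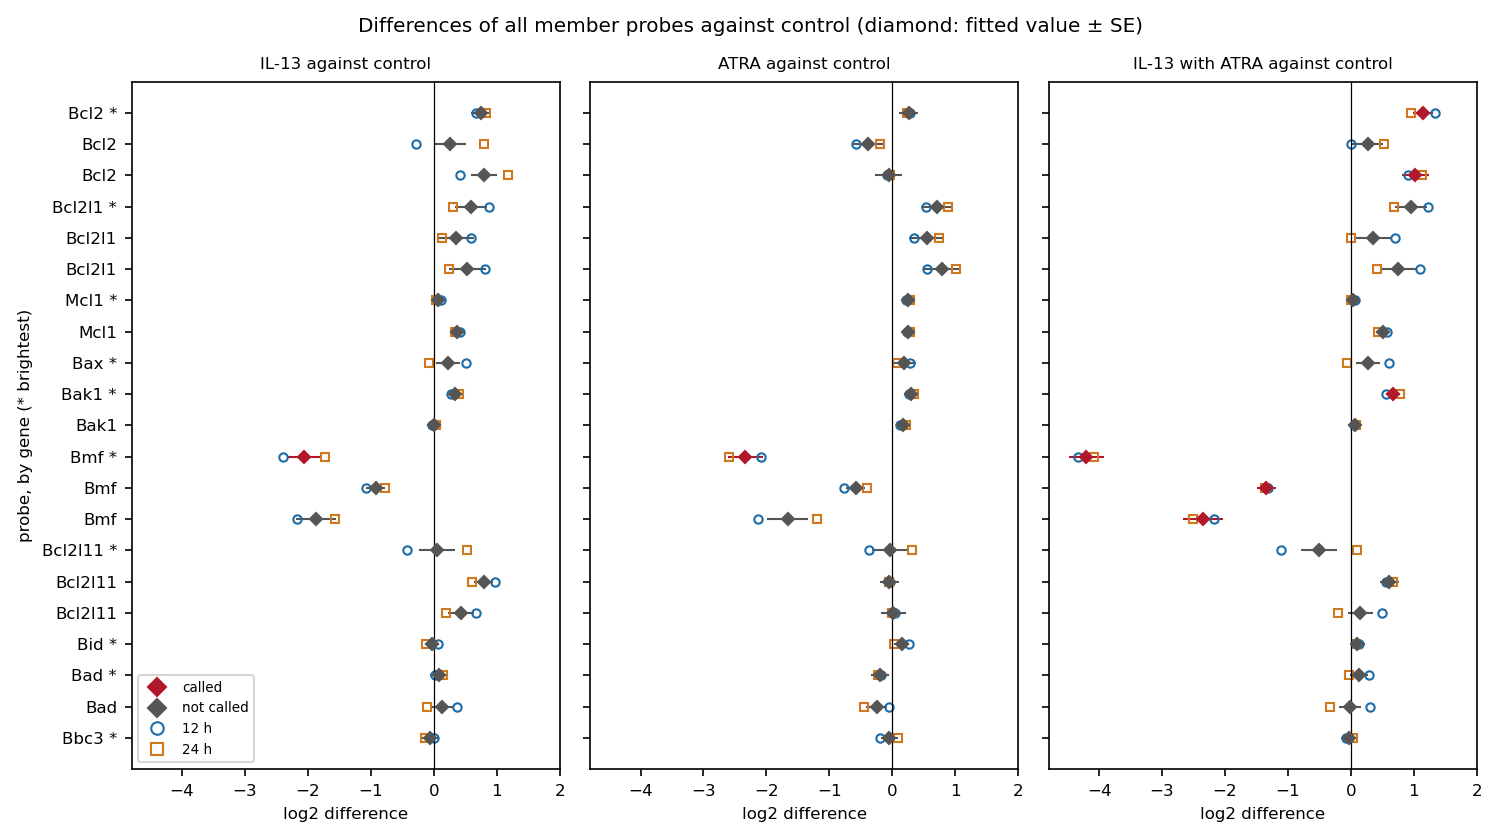
Log2 differences from control (x axis) of all 21 probes of the 10 genes (y axis, an asterisk marks the brightest probe of a gene) for IL-13, ATRA and both agents. Diamonds are fitted values with bars of 1 SE, red where called, and open symbols are the differences at 12 h and 24 h. The brightest Bmf probe is called in all 3 panels, and with both agents its coding probe, 2 probes of Bcl2 and 1 of Bak1 are called as well. Bmf probe A_52_P78830 is also drawn red with both agents, but it was well above background only in control. It entered the test only through control, so its red mark is not counted as a call. Its plotted differences are not measured on both sides.

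Of the BH3-only genes, Bmf was the only member called in more than 1 comparison. Its brightest probe, A_52_P384394, starts at base 4547 of the transcript record and lies at chr2:118354519-118354578 on the minus strand of mm9. It stood at 8.56 and 8.60 in control, 6.48 and 6.01 with ATRA, 6.17 and 6.88 with IL-13, and 4.23 and 4.52 with both agents. Control was above all other arrays and the arrays with both agents below all others, while ATRA and IL-13 overlapped and swapped places between 12 h and 24 h. The probe was well above background on all 8 arrays.

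Against control, Bmf fell by 2.06 ± 0.28 on the log2 scale with IL-13 (adjusted p = 0.045), by 2.39 at 12 h and 1.72 at 24 h. With ATRA it fell by 2.34 ± 0.28 (adjusted p = 0.031), by 2.08 at 12 h and 2.59 at 24 h. With both agents it fell by 4.21 ± 0.28 (adjusted p = 0.0042), by 4.33 at 12 h and 4.08 at 24 h. Both agents were lower than IL-13 alone by 2.15 ± 0.28, or 4.44-fold (adjusted p = 0.032). They differed from ATRA alone by -1.87 ± 0.28, or 3.65-fold, with an adjusted p of 0.090, and this comparison called the fewest probes of the 5 between treatments.

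The single effects of Bmf added up to -4.40 on the log2 scale, beside the -4.21 measured with both agents. The interaction was 0.19 ± 0.39 with a 95% interval of -0.79 to 1.17, so departures from the sum within that interval were not detectable with these arrays. The difference of -4.21 kept its call in all 12 alternative settings and in all 8 fits that left out 1 array. With normexp background correction, an alternative to the scanner software's own subtraction, it shrank to -2.31. That setting adds an offset of 50 to every signal, which by itself makes log2 differences of dim probes smaller. The part of the offset in the smaller value was not tested. In that setting the differences were -1.48 with IL-13, -1.64 with ATRA and -0.83 for both agents against IL-13 alone, each still called, and the interaction was 0.82, not called.

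The calls with a single agent rested on more of the arrays. The call with IL-13 was lost without either control, either IL-13 or either combined array (adjusted p from 0.060 to 0.25), and in 4 other settings (adjusted p from 0.056 to 0.23). These were quantile normalization, the deposited log2 table, no filter on dim probes, and a fit of only the arrays compared. The call with ATRA was lost without either control, either ATRA or either combined array (adjusted p from 0.058 to 0.20), and without the filter (adjusted p = 0.19). That of both agents against IL-13 was lost without either control array, either combined array or the 24 h array of IL-13 (adjusted p from 0.081 to 0.17). It was also lost without the filter and in a fit of only the arrays compared (adjusted p from 0.080 to 0.19).

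The coding probe of Bmf, A_51_P482239, printed above, lies 3.8 kb upstream, was dimmer, and differed in the same direction as the brightest in all 5 comparisons. It stood at 4.89 and 4.76 in control, 4.12 and 4.37 with ATRA, 3.81 and 3.99 with IL-13, and 3.56 and 3.40 with both agents. Here no treatment overlapped with another, in the order control, ATRA, IL-13, both agents at each time. These signals are close to background, however. With both agents the lowest signal well above background was 3.41 on the 12 h array and 3.10 on the 24 h array, so differences can be compressed there. It fell by 1.34 ± 0.15 with both agents against control (adjusted p = 0.011), and gave -0.93 ± 0.15 with IL-13 (adjusted p = 0.059) and -0.58 ± 0.15 with ATRA (adjusted p = 0.16).

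Probe A_52_P78830, between the other 2, was well above background on only the 2 control arrays, at 4.37 and 4.39. The other groups therefore have only a limit: Bmf was at least 2.18-fold lower on this probe with IL-13, at least 2.40-fold lower with ATRA and at least 2.18-fold lower with both agents. Such a bound sets the control mean against the higher of the probe's own signal and the lowest signal well above background on each array. The probe entered the test only through the control arrays, so its p-values are not given. Over the 8 arrays the brightest probe and the coding probe correlated at r = 0.92. The call of the coding probe with both agents against control was lost without either control or either combined array (adjusted p from 0.052 to 0.079), without the filter on dim probes (adjusted p = 0.084), and with normexp, where the difference shrank to -0.15 (adjusted p = 0.68).

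Bcl2l11 encodes BIM, the BH3-only protein that binds all anti-apoptotic members, in several splice forms. Its probes went different ways. The junction probe A_51_P484880, printed above, stood at 7.48 and 7.59 in control, 7.44 and 7.54 with ATRA, 8.46 and 8.20 with IL-13, and 8.04 and 8.26 with both agents. All 4 arrays with IL-13 were above all 4 without it. The difference was 0.79 ± 0.15 with IL-13 against control (adjusted p = 0.078) and 0.61 ± 0.15 with both agents against control (adjusted p = 0.064), and neither passed the test. The latter was called in 5 alternatives, namely the filter on all arrays, trend and robust settings, time as a random block, and without either IL-13 array, and the former in 1, trend and robust settings.

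The brightest Bcl2l11 probe, A_52_P158527, lies 15.2 kb further along the gene, from base 4804 of the same transcript record. It stood at 10.06 and 9.48 in control and at 8.95 and 9.58 with both agents, a difference of -1.11 at 12 h and 0.10 at 24 h. With IL-13 alone it gave -0.43 at 12 h and 0.53 at 24 h, a fitted 0.05 ± 0.29 (adjusted p = 0.93). Probe A_52_P348214, which also spans an intron, gave 0.43 ± 0.20 with IL-13 (adjusted p = 0.25). The brightest probe correlated with the junction probe at r = -0.22 and with A_52_P348214 at r = -0.33, and the latter 2 correlated with each other at r = 0.68.

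The remaining BH3-only genes differed little. Bid, which encodes the protein that links death receptors to mitochondria once cut by caspase-8, ranged from 12.14 to 12.52. Bbc3, which encodes PUMA, a target of p53, ranged from 10.77 to 11.22. With both agents against control Bid gave 0.11 ± 0.12 (95% interval -0.19 to 0.40) and Bbc3 -0.02 ± 0.14 (95% interval -0.37 to 0.32).

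Bad encodes a BH3-only protein that is held inactive by growth-factor signalling. Its brightest probe maps to the minus strand (chr19:7025594-7025653, mm9), whereas its other probe, A_51_P419364, maps to the plus strand, 9.0 kb away at chr19:7016618-7016677. That strand difference was found after the values were seen. The plus-strand probe was designed on a reference transcript of Bad, so as annotated the brightest probe lies on the strand opposite to that transcript. Whether it reads Bad RNA was not tested, although it stands for Bad in the counts. The first probe ranged from 5.35 to 5.81 and the second from 5.04 to 5.74, and neither was called in any comparison. They gave 0.13 ± 0.14 and -0.01 ± 0.17 with both agents against control.

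Between 12 h and 24 h the sign of the difference was the same for 6 of 10 members with IL-13 against control, for 8 of 10 with ATRA, and for 6 of 10 with both agents. These counts are for the brightest probes, and the share over all probes was not worked out. On its brightest probe Bmf was the 1 member that differed at least 2-fold in the same direction at both times, in each of the 5 comparisons between treatments. The coding Bmf probe did so only with both agents against control, at 2.50-fold and 2.57-fold. With IL-13 it gave 2.11-fold and 1.70-fold, and with ATRA 1.70-fold and 1.31-fold. Tests of a change over time in either agent's effect called 0 probes on the whole array by limma, with 2231 and 2245 probes at an unadjusted p under 0.05, and had 1 residual degree of freedom.

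Genes around the family were read from lists of 51 further apoptosis genes, of which 49 were on the array and 45 were tested. Of these 45, IL-13 raised 2 and lowered 1, where 1.18% of all probes were called. The lowered gene, Naip1, entered the test only through groups other than IL-13 and is not counted as a call. ATRA changed 0 by limma (4 at an unadjusted p under 0.05), beside 1.58% of all probes, and both agents against control raised 5 and lowered 1, beside 8.67%. Adding ATRA to IL-13 raised 1, again Naip1 and not counted, and lowered 1, beside 2.25%. Adding IL-13 to ATRA raised 1, beside 0.333%. The median log2 difference of the 45 was 0.13 with IL-13, -0.07 with ATRA and -0.04 with both agents against control.

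Of 15 other BCL2 family genes, 9 were tested, and both agents against control raised 2 and lowered 1, where 8.67% of all probes were called. The 2 were Bcl2a1b (1.41 ± 0.28, adjusted p = 0.042) and Bcl2a1c (1.55 ± 0.28, adjusted p = 0.034), copies of the anti-apoptotic A1 gene that are near-identical in sequence and whose probes may read each other's RNA. With IL-13 alone these 2 gave 0.94 ± 0.28 and 1.11 ± 0.28 (adjusted p = 0.15 and 0.12), and neither passed the test. The gene that fell was Bok, a relative of Bax and Bak1 (-0.88 ± 0.19, adjusted p = 0.048). Bok gave -0.80 ± 0.19 with ATRA alone (adjusted p = 0.13) and 0.15 ± 0.19 with IL-13 alone (adjusted p = 0.62). With both agents against ATRA alone it gave -0.08 ± 0.19 (adjusted p = 0.86). The 24 h array with both agents, at 5.54, was the lowest of the 8 for Bok.

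Downstream, 10 of 10 genes of the apoptosome and the caspases were tested. Casp6, which encodes an executioner caspase, stood at 10.28 and 10.32 in control, 9.93 and 9.76 with ATRA, 12.78 and 12.94 with IL-13, and 12.14 and 11.57 with both agents. All 4 arrays with IL-13 were above all 4 without it. Casp6 rose by 2.56 ± 0.20 with IL-13 (adjusted p = 0.018) and by 1.56 ± 0.20 with both agents against control (adjusted p = 0.015). Both agents were above ATRA alone by 2.01 ± 0.20 (adjusted p = 0.033). Endog, which encodes a mitochondrial nuclease, rose by 0.71 ± 0.15 with both agents against control (adjusted p = 0.047).

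In the death receptor arm, of which 6 of 6 genes were tested, Fas, the receptor of Fas ligand, stood at 6.62 and 6.98 in control, 6.05 and 6.79 with ATRA, 8.70 and 9.04 with IL-13, and 7.40 and 7.26 with both agents. It rose by 2.07 ± 0.21 with IL-13 (adjusted p = 0.028) and was lower with both agents than with IL-13 alone, by 1.54 ± 0.21 (adjusted p = 0.036). With both agents against control it gave 0.53 ± 0.21 (adjusted p = 0.17). Its second probe was well above background on 0 arrays.

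Of 8 caspase inhibitors, all 8 were tested. IL-13 against control marked 1, Naip1, beside 1.18% of all probes, and both agents against IL-13 marked the same 1, beside 2.25%. For the reason below it is not counted as a call. Naip1, of the NAIP family of inhibitors and bacterial sensors, stood at 5.21 and 4.60 in control, 5.51 and 5.33 with ATRA, 3.64 and 3.25 with IL-13, and 4.90 and 4.84 with both agents. Its signal was lower by 1.46 with IL-13 and higher by 1.42 once ATRA was added to IL-13. It was well above background on 1 of the 2 IL-13 arrays. At 12 h its IL-13 signal lay under the lowest signal well above background on that array, 3.69. The gene entered the test only through the other groups, so its p-values are not given. Naip genes are close copies, so the probe may read more than 1 of them.

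Of 12 regulators and binding partners of the family, all 12 were tested. Only both agents against control called any, namely 1, where 8.67% of all probes were called. Dynll2, a dynein light chain, the kind of protein that tethers Bmf, rose by 0.53 ± 0.11 with both agents against control on its brightest probe (adjusted p = 0.048), while its other 2 probes gave 0.03 ± 0.10 and 0.16 ± 0.16.

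When each array was left out in turn, every call of these 8 genes was lost in at least 3 of the 8 fits. Casp6 lost its call with IL-13 without either control array or the 24 h IL-13 array (adjusted p from 0.054 to 0.13), and that with both agents against control without either control array or the 12 h combined array (adjusted p from 0.062 to 0.10). Fas lost its call with IL-13 without either control or either IL-13 array (adjusted p from 0.056 to 0.17). Bcl2a1b, Bcl2a1c and Endog kept theirs only without either IL-13 array (adjusted p up to 0.20, 0.16 and 0.23 otherwise). The calls of Naip1, Bok and Dynll2, that of Fas against IL-13 alone and that of Casp6 against ATRA alone were lost in all 8. Without the term for time, the replicate block, Naip1 with IL-13 (adjusted p = 0.052), and Endog and Bok with both agents against control (adjusted p = 0.061 and 0.17), were not called, and Bok was not called with time as a random block either (adjusted p = 0.12). With normexp the Naip1 difference with IL-13 was -0.38 and that of Bok with both agents was -0.41.

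**Figure D4:**
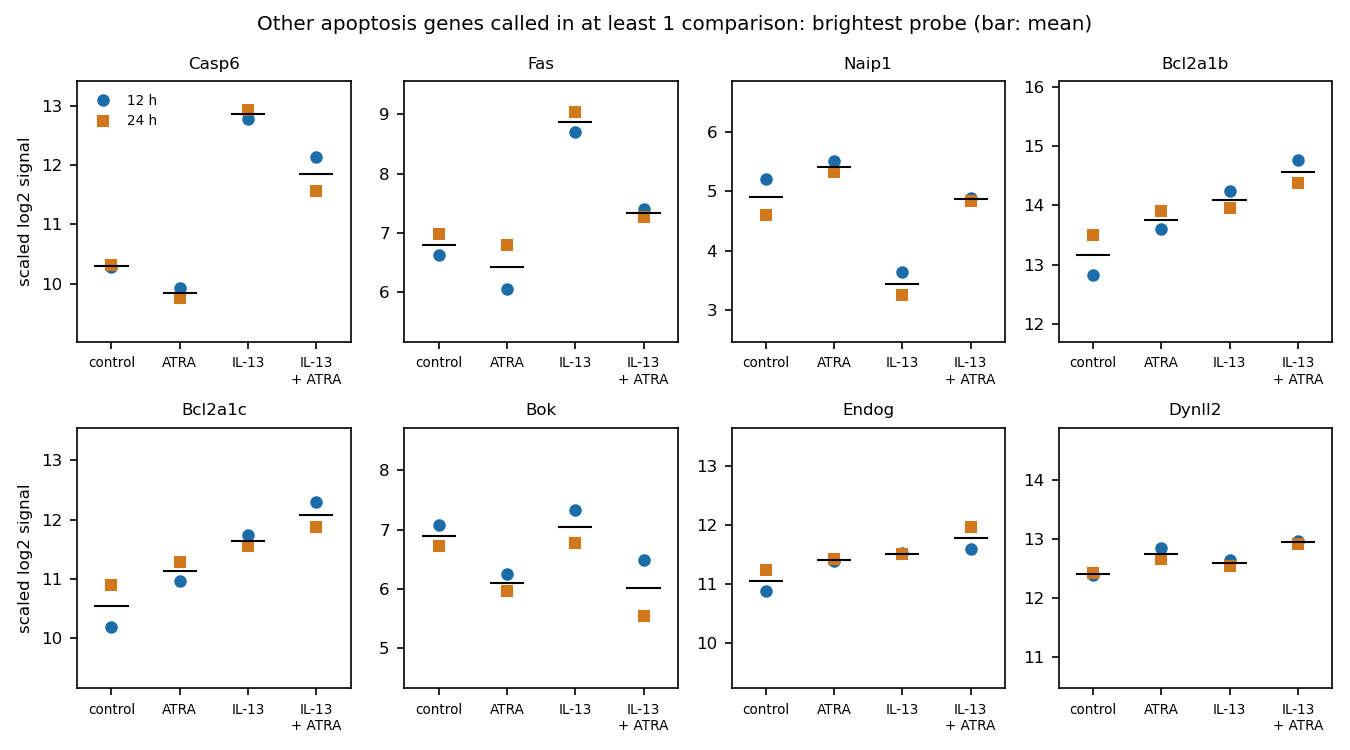
Scaled log2 signal (y axis, a span of equal height in each panel) of the brightest probe of the 8 other apoptosis genes called in at least 1 comparison, by treatment (x axis), with circles for 12 h, squares for 24 h and bars for their means. Casp6 is highest with IL-13, at 12.78 and 12.94, and so is Fas, at 8.70 and 9.04. Naip1 is drawn among them, but it entered the test only through groups other than IL-13, so its calls are not counted.

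Among 12709 other genes, the 5 whose signal over the 8 arrays was most like that of the brightest Bmf probe were Tut7 (Pearson r = 0.995), Tspan13 (0.991), Tpd52 (0.984), Ifi211 (0.982) and Zfp608 (0.982). The 8 arrays share slides and treatments, so these values are a description. The likeness is one of shape and not of size. With both agents against control the differences were -2.16 for Tspan13, which encodes a tetraspanin, -1.38 for Ifi211, -1.01 for Zfp608, -0.77 for Tpd52 and -0.44 for Tut7. They are given without a test, since the genes were picked for their likeness to Bmf on the same arrays.

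Of 7 genes by which these agents are known, 6 were tested. Cish, a feedback target of IL-13 signalling, was at least 175-fold higher with IL-13 than in control. It was well above background on 4 arrays and entered the test only through the groups with IL-13, so its p-value is not given. The retinoic acid target Tgm2 was higher with ATRA by 4.50 ± 0.39 on the log2 scale. The labels call the cells given both agents suppressed in polarization. Of 2 M2 markers, adding ATRA to IL-13 raised Arg1 by 5.46 ± 0.50 (adjusted p = 0.017). Arg1 was also higher with ATRA alone, at 4.12 and 4.50, than in control, at 1.56 and 0.77. Mrc1 gave -1.65 ± 0.37 and did not pass the test (adjusted p = 0.099). It stood at 8.38 and 9.48 with IL-13 and at 7.24 and 7.32 with both agents. All 6 macrophage markers tested were well above background on all 8 arrays. Of them 1, Adgre1, was called with IL-13, higher than in control by 1.08 ± 0.13, beside 1.18% of all probes. It was also called with both agents against control, beside 8.67%. Of 16 markers of 5 other cell types, 10 were well above background on 0 arrays and 3 on all 8. Of them 0 were called, where the comparisons between treatments called 0.333% to 8.67% of all probes. Of 6 stress genes, Atf3 was called higher with IL-13, beside 1.18% of all probes, and Fos lower with ATRA, beside 1.58%. With both agents against control Fos was called lower and Atf3 higher, beside 8.67%. Hspa1a was well above background on 4 arrays. Its ATRA signals, 1.77 and 1.73, lay under the lowest signal well above background on those arrays, 3.01 and 3.23. It entered the test only through other groups, so its call as lower with ATRA is not counted. The log2 of the summed signal of the 6 stress genes was 12.12 to 12.30 in control, 11.37 to 11.44 with ATRA, 12.78 to 12.80 with IL-13 and 11.68 to 12.07 with both agents. Their part in the differences of the BCL2 family was not tested. The 75th percentile of the signal ran from 431 to 713 over the arrays, both on IL-13 arrays, and 54.1% to 61.4% of probes were well above background.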

How the data were processed

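RNA of 4 treatments, each at 12 h and at 24 h, was hybridised to 8 arrays. Per the file headers, the authors used Agilent Feature Extraction 10.7.1.1 to quantify the scans, and its processed signals, deposited without normalization between arrays, are background-subtracted values in the unit intensity. The mean and background intensity per spot, deposited in the same files, served only the normexp alternative. The other 0 or 1 flags per spot (well above background, saturated, non-uniform, outlying), per the file headers, were read as given. The authors also deposited a table on a log2 scale, with unstated normalization. Its columns all had a median of 4.57, and each had a Spearman correlation of at least 0.999996 with its own array. It served as an alternative.

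Control spots and flagged spots were left out, and spots of 1 probe were averaged. The log2 signal was scaled to each array's 75th percentile, and the mean of the log2 percentiles over the 8 arrays was added back. A probe was tested where both arrays of any treatment showed it well above background (24043 of 41174 probes). limma 3.58.1 in R 4.3.3 fitted the 4 treatments and time to all 8 arrays, with 3 residual degrees of freedom and a prior of 2.53 degrees of freedom. Tests were two-sided, and intervals are 95% confidence intervals from that fit. The script was tested on simulated data. Values of the 12 h and 24 h comparisons are differences between single arrays.

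Time is given by the labels, and the 12 h arrays shared slide 1 and the 24 h arrays slide 2. Time and slide therefore cannot be told apart, but each comparison of treatments was made within them. The time term pairs the arrays. Between treatments, the changes from 12 h to 24 h correlated across probes at 0.02 to 0.22. With 1 array per treatment and time, the SEs and p-values rest on how far treatment differences disagree between 12 h and 24 h. An effect that changes between the times therefore counts as spread. Nothing in the labels states separate cultures, and p-values then cover only the spread between these arrays, whose number limits the precision. The named genes were all members, every listed apoptosis gene whose brightest probe was called, and the 5 genes most like Bmf. Genes named beyond that rule are examples chosen after their values were seen. The members and lists were chosen with earlier results of these data known. Probe levels were not compared between probes. The alternatives were background correction, normalization, filters, flagged spots, 1 probe per gene, variance model, the time block, and leaving out each array.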

Additional observations from a re-analysis of the deposited data

How the results depend on the processing

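The number of members called depended on the setting, although 0 of the called member probes changed sign in any of them. With IL-13 against control (1 in the reported fit) it was 0 with quantile normalization, with the deposited table, without a filter on dim probes and with only the arrays compared, and 2 (Bcl2 and Bmf) with limma's trend and robust settings. With ATRA against control (1) and with both agents against IL-13 (1) it was 0 without a filter, and for the latter also 0 with only the arrays compared. With both agents against ATRA (0) it was 1 with the filter on all arrays and with time as a random block, both Bmf, and 2 with trend and robust settings. With both agents against control (3) it was 1, Bmf, without a filter, 2 with only the arrays compared and 4 (Bcl2l1 in addition) with trend and robust settings. Leaving out each array in turn gave 0 to 1, 0 to 1, 0 to 1, 0 to 0 and 1 to 3 members in these 5 comparisons, and the interaction called 0 in every setting run. Without the replicate block, that is without a term for time, the counts were 1, 1, 1, 0 and 3. The pairing by time thus changed no count of members, although 3 calls of other genes were lost (Endog, Bok and the uncounted Naip1). Over all probes, the number called ranged from 1 to 1061 with IL-13, 0 to 860 with ATRA, 0 to 1168 for both agents against IL-13, 2 to 264 against ATRA, 49 to 3392 against control and 0 to 10 for the interaction. The signal over background limits the dim probes, on which normexp, with its offset of 50, gave smaller differences. The alternatives for genes outside the 10 members were added after the data were seen.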

Other observations

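Promoter windows of 300 bases around the starts of the 10 genes, from RefSeq on build GRCm38.p6, were searched on both strands for 5 motifs. The table held 18 windows of these genes among 32851. The spaced palindrome TTCNNNNGAA was in 6.95% of all promoters and in 1 of the 18, that of Bcl2l1. The related TTCNNNGAA, which 1 window can hold beside it, was in 8.3% of all and in 0 of the 18. The forkhead motif GTAAACA was in 3.65% of all and in promoters of Bcl2l11 and Bbc3, and the E-box CACGTG in 7.15% of all and in promoters of Bbc3 and Bax. The DR5 retinoic acid response element was in 0.1% of all and in 0 of the 18. None of the 5 motifs was found in the promoters of Bmf in this window.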
